A study of Homo sapiens with 6 samples.

Results

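The genes described here encode 10 enzymes that make, elongate and desaturate fatty acids in human cells, and they were taken by symbol from the 28008 genes of a count table: ACLY, ACSS2, ME1, ACACA, FASN, ELOVL5, ELOVL6, SCD, FADS1 and FADS2. They were chosen by known function, not by a threshold on their values. All 10 were present, and all 10 had enough counts to be tested. The question asked of them was whether genes of the kind driven by SREBP1 moved when MUC1 was silenced.

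New fatty acids are built in the cytosol. ACLY splits citrate and ACSS2 activates acetate, so that both deliver acetyl-CoA, and ME1 supplies NADPH, the reducing power of the pathway. ACACA carboxylates acetyl-CoA to malonyl-CoA in its committed step, and FASN joins these units into palmitate. ELOVL6 and ELOVL5 then lengthen saturated or polyunsaturated chains, SCD places the first double bond to give oleate and palmitoleate, and FADS2 and FADS1 add further double bonds to dietary polyunsaturated chains at the Δ6 and Δ5 positions. Transcription of these genes is known to be driven by SREBP1, a factor held in the endoplasmic reticulum by SCAP and INSIG proteins and released by 2 Golgi proteases, and prostate cancers are known for a high rate of this synthesis.

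The RNA-Seq libraries came from DU-145-DR cells, a line selected from the human prostate cancer line DU-145 with rising concentrations of docetaxel (DTX). These cells carried an inducible MUC1 hairpin, tet-MUC1shRNA, in a puromycin-selected vector. Vehicle-treated cells, given 0.1% DMSO, formed the DOX-negative group, and cells given doxycycline (DOX) at 500 ng/ml formed the DOX-positive group. The exposure is given as a week in the study's supplement, and each group held 3 cultures of the 1 line. The labels name the hairpin only for the DOX-positive libraries and the DTX resistance only for the DOX-negative ones, while the study describes both groups as the same cells. No library with a control hairpin was analysed here, so an effect of DOX itself cannot be told apart from that of silencing MUC1.

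Library totals ranged from 15092691 to 23243713 counts, so that 3 counts, the smallest count read as detection, correspond to 0.131 to 0.202 CPM, the unit of counts scaled to a fixed library total. MUC1 checked the labels: it was at 21.3, 24.8 and 19.7 CPM in the DOX-negative libraries and at 3.27, 3.87 and 4.44 CPM in the DOX-positive libraries, a log2 fold change of -2.52 (SE 0.146). Of 11 stromal, endothelial and leukocyte markers, 9 had at most 17 counts, and the list summed to between 96.0 and 111 CPM without DOX and between 164 and 186 CPM with DOX, most of it CD68. The 5 epithelial markers KRT8, KRT18, KRT19, EPCAM and CDH1 all rose, their sum going from between 758 and 838 CPM to between 1444 and 1517 CPM. The part that this change plays in the values below was not tested.

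Of all 14292 genes tested, 26.7% differed between the groups at an adjusted p under 0.05 (edgeR quasi-likelihood test, Benjamini-Hochberg), 13% higher and 13.7% lower in DOX-positive cells. Among the 10 enzymes, 5 passed: ACSS2, FASN and ACLY rose, and FADS1 and ME1 fell. These same 5 genes had CPM ranges without overlap between the groups, and the other 5 overlapped, against 39.8% of all genes tested whose groups did not overlap. The median log2 fold change of the 10 enzymes was 0.043, beside -0.0034 over all genes tested. The enzymes thus went in both directions, and the changes of FASN, ACLY, ME1 and FADS1 were at most 0.31 on the log2 scale. In bulk RNA, fewer transcripts per cell and fewer cells that hold a transcript cannot be told apart.

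**Figure D1:**
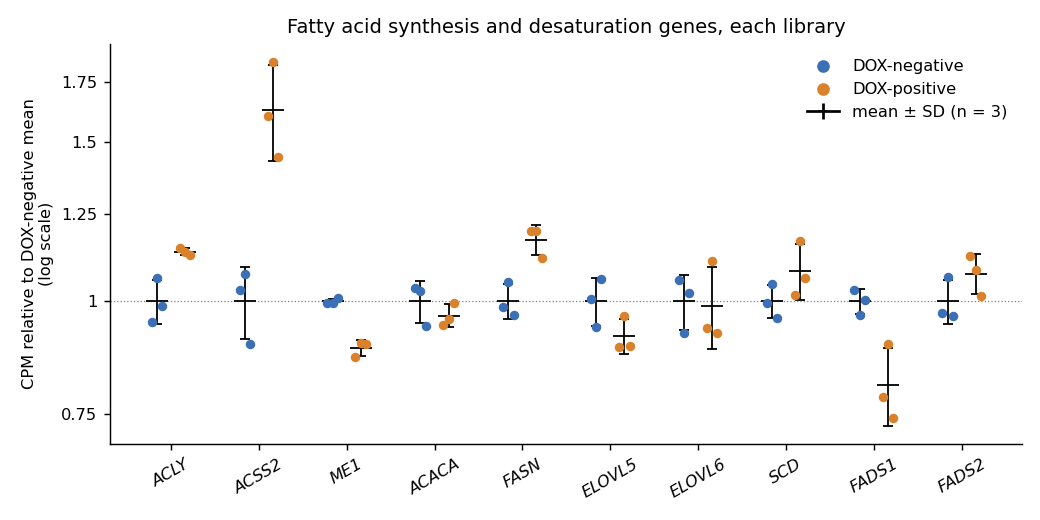
CPM of each enzyme gene in each library, divided by its mean over the 3 DOX-negative libraries (log axis). Points are libraries, and bars are the mean ± SD of 3 libraries. The 3 DOX-positive points stand clear of the DOX-negative ones above 1 for ACLY, ACSS2 and FASN and below 1 for ME1 and FADS1.

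The largest change belonged to ACSS2, the cytosolic and nuclear acetyl-CoA synthetase that turns free acetate into acetyl-CoA (chr20:34874989-34927959, GRCh38.p14). It was at 53.7, 55.9 and 46.7 CPM in the DOX-negative libraries and at 83.6, 95.9 and 75.2 CPM in the DOX-positive libraries. Every DOX-positive library lay above every DOX-negative one, and their mean reached 163% of that without DOX. On the log2 scale the rise was 0.71 (SE 0.089, 95% interval 0.52 to 0.89, adjusted p 3.91e-06), and it stayed between 0.61 and 0.78 with each library left out in turn.

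ACLY, which makes acetyl-CoA from citrate (chr17:41866917-41930545), changed by less. Its CPM was 585, 654 and 609 without DOX and 707, 699 and 693 with DOX. The log2 fold change was 0.18 (SE 0.062, 95% interval 0.055 to 0.31, adjusted p 0.0318). This call rested on the full set of libraries: the adjusted p rose to between 0.0531 and 0.175 when any library other than DOX-negative replicate 2 was left out, and was 0.0089 without that library.

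Set within each library, the count of ACSS2 was 0.0917, 0.0854 and 0.0767 of that of ACLY in DOX-negative cells and 0.118, 0.137 and 0.109 of it in DOX-positive cells. The 3 ratios with DOX all exceeded the 3 without, a log2 change of 0.52. An exact two-sided permutation test gave p = 0.1, the smallest that 3 against 3 libraries allow. This ratio and those below were chosen after the values had been seen.

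ME1, the cytosolic malic enzyme (chr6:83210402-83431051), had the smallest spread of the 10 enzymes in DOX-negative cells (CV 0.697%). It was at 147, 147 and 149 CPM without DOX and at 128, 133 and 132 CPM with DOX, so that all DOX-positive libraries were lower. The log2 fold change was -0.17 (SE 0.062, 95% interval -0.30 to -0.042, adjusted p 0.0449). The call was kept without DOX-positive replicate 2 (adjusted p 0.0497) and lost without any other library (0.0675 to 0.152).

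Other sources of NADPH were followed as a list of 10 tested enzymes, of which 1 rose and 2 fell, with a median of 0.092. Calls thus made up 30% of the list, beside 26.7% of all genes tested. NNT, the mitochondrial transhydrogenase, was at 145, 140 and 147 CPM without DOX and at 102, 104 and 104 CPM with DOX (log2 fold change -0.48, adjusted p 6.84e-06). ALDH1L2, a mitochondrial folate enzyme that makes NADPH, rose from a mean of 50.1 ± 6.20 to 79.4 ± 17.6 CPM (SD, n = 3; log2 fold change 0.66, adjusted p 0.000164).

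ACACA, the acetyl-CoA carboxylase that makes malonyl-CoA for synthesis (chr17:37084992-37406836), did not pass the test. It was at 216, 214 and 196 CPM without DOX and at 196, 199 and 208 CPM with DOX, and the groups overlapped. The log2 fold change was -0.053 with a 95% interval of -0.18 to 0.078 (adjusted p 0.586).

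FASN, the multifunctional synthase that releases palmitate (chr17:82078338-82098236), rose. Its CPM was 420, 448 and 411 in DOX-negative and 511, 509 and 476 in DOX-positive cells, with no overlap. The log2 fold change was 0.23 (SE 0.061, 95% interval 0.099 to 0.35, adjusted p 0.0085), and its adjusted p stayed under 0.05 with each library left out (0.0040 to 0.0488).

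The ratio of FASN to ACACA counts within a library was 1.95, 2.09 and 2.10 without DOX and 2.60, 2.56 and 2.29 with DOX. All 3 DOX-positive ratios were higher (log2 change 0.28, exact two-sided permutation p = 0.1, the smallest possible).

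Of the 16 tested genes for the remaining steps of synthesis and elongation, 3 rose, none fell, and the median was 0.14. That share, 18.8%, was below the 26.7% of all genes tested. HSD17B12, the ketoacyl-CoA reductase shared by all elongases, rose from 156, 138 and 158 CPM to 196, 215 and 183 CPM (log2 fold change 0.39, adjusted p 0.000311). ACACB, the mitochondria-bound carboxylase whose malonyl-CoA restrains oxidation, rose by less (0.32, adjusted p 0.0424). ELOVL1, which elongates very long saturated chains, had a change of 0.27 (adjusted p 0.0163). The ACACB call was lost without DOX-negative replicates 1 (adjusted p 0.0966) or 3 (0.209) and without DOX-positive replicates 1 (0.0621) or 3 (0.169). Leaving out replicate 1 of either group lost the ELOVL1 call (0.0851 for DOX-negative and 0.155 for DOX-positive) and left 1 gene of the list past the threshold.

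Neither elongase of the set passed. ELOVL5, which lengthens polyunsaturated chains (chr6:53267404-53348950), was at 344, 320 and 361 CPM without DOX and at 304, 329 and 305 CPM with DOX. Its log2 fold change was -0.13 with a 95% interval of -0.26 to 0.0048 (adjusted p 0.147). ELOVL6, which takes palmitate to stearate (chr4:110045846-110199202), was at 90.7, 79.1 and 87.7 CPM against 80.3, 95.02 and 79.1 CPM. The DOX-positive values spanned the DOX-negative ones, and the log2 fold change was -0.017 (95% interval -0.18 to 0.15, adjusted p 0.908).

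SCD, the Δ9 desaturase that makes monounsaturated fatty acids (chr10:100347233-100364826), supplied between 42.7% and 46.0% of the counts of the 10 enzymes in every library, a share that also reflects transcript length. It was at 2197, 2302 and 2115 CPM without DOX and at 2243, 2572 and 2337 CPM with DOX. The groups overlapped, and the log2 fold change was 0.11 (95% interval -0.028 to 0.25, adjusted p 0.236). Together the 10 genes took between 0.493% and 0.553% of a library's counts. That sum without SCD was between 2838 and 2909 CPM in DOX-negative and between 2802 and 3015 CPM in DOX-positive cells, so that the summed level overlapped between the groups.

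FADS1 and FADS2 are neighbours on chromosome 11 that are transcribed away from each other, and their values parted. FADS1, the Δ5 desaturase (chr11:61799627-61817003, minus strand), was at 643, 603 and 626 CPM without DOX and at 488, 559 and 463 CPM with DOX. All DOX-positive libraries were lower, with a log2 fold change of -0.31 (SE 0.069, 95% interval -0.45 to -0.17, adjusted p 0.0018). FADS2, the Δ6 desaturase (chr11:61816203-61867354, plus strand), was at 355, 390 and 352 CPM against 411, 396 and 371 CPM. It did not pass, with overlapping groups and a log2 fold change of 0.10 (95% interval -0.030 to 0.23, adjusted p 0.252).

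The count of FADS1 was 1.81, 1.55 and 1.78 times that of FADS2 in the DOX-negative libraries and 1.19, 1.41 and 1.25 times in the DOX-positive libraries. The groups did not overlap, and the mean log2 ratio changed by -0.42 (exact two-sided permutation p = 0.1, the smallest possible). In RefSeq, the gene bodies overlap by 801 bases on opposite strands (chr11:61816203-61817003). The annotation used in counting is not given in the sources used here, so the overlap there may be longer. The library kit was stranded, but the strand setting used in counting is not given in the sources used here, so reads in that overlap could belong to either gene. GENCODE 29 also has FEN1 sharing exon sequence with a FADS2 transcript on the same strand.

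Among 9 other tested desaturases and electron carriers, 2 rose and 1 fell, with a median of 0.14 (33.3% called, beside 26.7% of all genes tested). CYB5B, a cytochrome b5, and CYB5R3, a cytochrome b5 reductase, each rose by 0.31 on the log2 scale (adjusted p 0.000842 and 0.00167). CYB5A, the other cytochrome b5 of the list, did not pass, with overlapping groups (0.14, adjusted p 0.347). Which of these carriers serves the desaturases in these cells was not tested. CYB5R2, another reductase of that family, had 90, 80 and 134 counts without DOX and 38, 18 and 27 counts with DOX, and its log2 fold change was -1.84 (adjusted p 1.99e-05).

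The sequences around the start sites of 4 of the enzymes are given because they carry the contrasts above: ACSS2, which rose most, SCD, the most abundant, and the FADS1 and FADS2 pair. Each window holds 250 bases before the RefSeq start and 50 bases from it on, read 5′ to 3′ along the gene's own strand (GRCh38.p14). Capitals mark the CCAAT box, bound by NF-Y, and the GC box GGGCGG, bound by SP1, on either strand, so that a match on the other strand reads ATTGG or CCGCCC. NF-Y and SP1 are known partners of SREBPs.
ACSS2, chr20:34874739-34875038, plus strand: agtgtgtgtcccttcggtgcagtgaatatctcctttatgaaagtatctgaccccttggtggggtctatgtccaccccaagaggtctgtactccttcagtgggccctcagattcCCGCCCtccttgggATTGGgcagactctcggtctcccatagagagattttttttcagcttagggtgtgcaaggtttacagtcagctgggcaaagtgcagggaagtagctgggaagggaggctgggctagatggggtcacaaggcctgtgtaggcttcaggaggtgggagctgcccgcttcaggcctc
SCD, chr10:100346983-100347282, plus strand: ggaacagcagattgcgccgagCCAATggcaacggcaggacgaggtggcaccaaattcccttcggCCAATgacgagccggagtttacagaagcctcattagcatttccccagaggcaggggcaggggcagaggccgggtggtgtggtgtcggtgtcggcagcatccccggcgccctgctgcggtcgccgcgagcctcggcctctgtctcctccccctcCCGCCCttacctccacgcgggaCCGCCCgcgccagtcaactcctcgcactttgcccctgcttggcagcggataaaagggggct
FADS1, chr11:61816954-61817253, minus strand: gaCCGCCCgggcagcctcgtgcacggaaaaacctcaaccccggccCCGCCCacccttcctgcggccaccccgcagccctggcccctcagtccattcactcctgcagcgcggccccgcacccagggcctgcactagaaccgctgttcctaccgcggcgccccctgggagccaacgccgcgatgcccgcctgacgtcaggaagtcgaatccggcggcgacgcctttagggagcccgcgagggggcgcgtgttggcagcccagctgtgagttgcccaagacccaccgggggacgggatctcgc
FADS2, chr11:61816154-61816453, plus strand, the downstream of its 2 listed starts: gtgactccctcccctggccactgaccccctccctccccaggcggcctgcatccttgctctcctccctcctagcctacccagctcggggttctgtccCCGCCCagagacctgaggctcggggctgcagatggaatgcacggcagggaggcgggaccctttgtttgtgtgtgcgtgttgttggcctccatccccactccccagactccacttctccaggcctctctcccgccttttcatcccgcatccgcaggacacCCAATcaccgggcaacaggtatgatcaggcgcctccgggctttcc

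The SCD window held CCAAT boxes that began 229 and 186 bases before the start and GC boxes that began 33 and 11 bases before it. ACSS2 held 1 of each, at 123 and 137 bases before the start. FADS1 held GC boxes at 248 and 205 bases before the start and no CCAAT box. FADS2 held a GC box 154 bases before the start and a CCAAT box from base 6 of the transcript. Whether these motifs relate to the directions of change was not tested.

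RefSeq windows were given for 9 of the enzymes, 14 windows in all, and FASN had no entry. A CCAAT box was found in 8 windows of 6 genes (ACACA, ACLY, ACSS2, ELOVL5, FADS2 and SCD), beside 34.6% of all 35116 promoter windows. A GC box was found in 11 windows of 8 genes, beside 45.0% of all windows. The E-box CACGTG was found in 1 window, that of ELOVL5, beside 7.26%. The sterol regulatory element, searched on both strands as TCACNCCAC, was found in 0 of the 14 windows, beside 1.13% of all windows. It was also found in 0 of 22 windows of 17 sterol genes, so the search cannot show that the enzymes lack such elements. These matches describe the letters of short windows only.

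Levels between genes were compared per transcript length, with the deposited TPM, transcripts scaled for their length and to a fixed total per library. In DOX-negative cells SCD stood at 560 ± 194 TPM, followed in order of the means by ACLY, FADS1, FADS2, ELOVL5, FASN, ME1, ELOVL6, ACSS2 and ACACA, the last at 12.2 ± 4.15 TPM (SD, n = 3). Only SCD was set apart from its neighbour over the libraries; every other neighbouring pair overlapped in range. Within each library, however, 8 of the 9 neighbouring pairs had the same order in all 3 libraries, and ACLY exceeded FADS1 in 1 of 3.

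In DOX-positive cells SCD stood at 445 ± 57.6 TPM and ACACA at 8.63 ± 0.821 TPM, and the order was the same except that ACSS2 (28.2 ± 4.20 TPM) stood above ELOVL6 (26.4 ± 3.93 TPM). The ranges of FADS1 and FADS2 overlapped, as did those of ACSS2 and ELOVL6, and the other neighbours did not overlap. The spread of the DOX-negative values came with 5 short RNAs, namely RPPH1, RN7SK and the signal recognition particle RNAs RN7SL1 to RN7SL3, which held 51.2%, 34.4% and 62.8% of TPM in those libraries and 60.5% to 64.4% in the DOX-positive libraries. With TPM rescaled without these RNAs, the SD of SCD in DOX-negative cells was 73.5 on a mean of 1095.

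**Figure D2:**
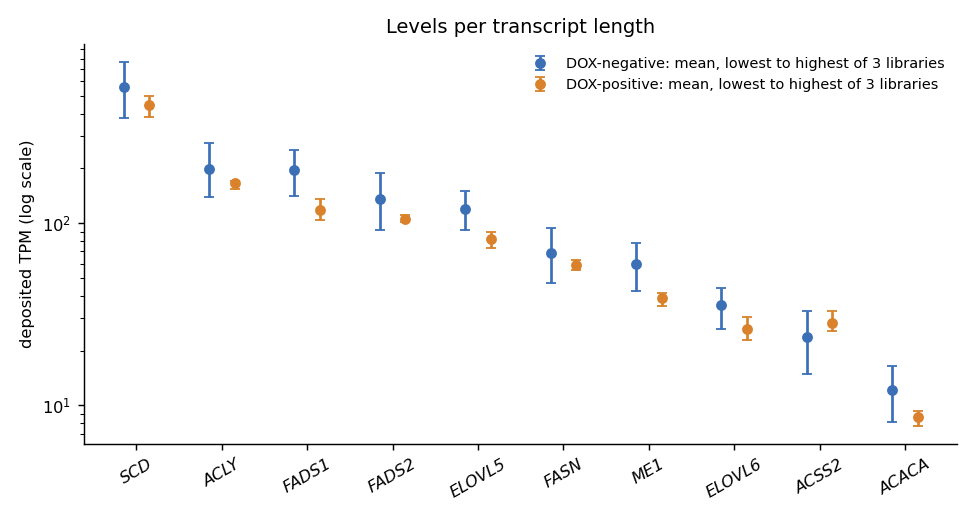
Deposited TPM of the enzyme genes (log axis), ordered by the DOX-negative mean. Points are means, and bars run from the lowest to the highest of 3 libraries. SCD lies above the other genes in both groups, and ACACA lies lowest.

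With the deposited TPM, the median log2 change over all genes was -0.34 on the log2(TPM + 1) scale, beside -0.024 after the rescaling, and 8.47% of its calls were higher, beside 48.8% from counts. None of the 10 enzymes passed on that scale, and 1 had an unadjusted p under 0.05 (limma), and the same counts held at log2(TPM + 0.1). Relative to the shifted median, ACSS2 changed by 0.64, FASN by 0.18, ACLY by 0.13, ME1 by -0.21 and FADS1 by -0.36, which are the directions seen in counts. After rescaling without the short RNAs, ACSS2, ME1 and FADS1 passed, and FASN (adjusted p 0.0564) and ACLY (0.0999) did not.

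The regulators of the pathway showed transcript changes in both directions: of 23 tested, 4 rose and 5 fell, with a median of 0.025. Calls made up 39.1% of this list, beside 26.7% of all genes tested. SREBF1, which encodes SREBP1, was at 46.3, 44.1 and 42.5 CPM without DOX and at 44.8, 46.9 and 43.5 CPM with DOX. The values interleaved, and the log2 fold change was 0.025 (SE 0.080, adjusted p 0.858). SREBF2, which encodes the sterol-directed SREBP2, was at 205, 216 and 203 CPM against 237, 212 and 226 CPM, and did not pass either (0.11, adjusted p 0.194). A transcript count does not measure the cleaved, nuclear form of either protein.

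SCAP, the escort that carries SREBPs to the Golgi, had a log2 fold change of 0.077 (adjusted p 0.543). INSIG1, the SREBP-induced protein that retains SCAP in the endoplasmic reticulum, was at 148, 151 and 171 CPM without DOX and at 231, 253 and 239 CPM with DOX (log2 fold change 0.62, SE 0.068, adjusted p 5.04e-07). INSIG2, its relative, did not pass (0.15, adjusted p 0.286). INSIG1 was the regulator with the largest rise, all its DOX-positive libraries lying above the DOX-negative ones.

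The proteases that free SREBPs fell. MBTPS1, the site-1 protease, was at 189, 179 and 184 CPM without DOX and at 113, 113 and 117 CPM with DOX, a log2 fold change of -0.68 (SE 0.063, adjusted p 3.94e-08). MBTPS2, the site-2 protease, was at 45.9, 47.9 and 49.8 CPM against 34.7, 41.6 and 39.3 CPM (-0.32, adjusted p 0.0088; 0.0716 without DOX-positive replicate 1). MBTPS2, PPARG, MID1IP1, PRKAA1, GPAM, GPAT3, AGPAT3, AGPAT5, LPIN1 and PLIN2 were singled out after their values had been seen. Transcripts of both proteases were lower in the DOX-positive libraries, in which ACSS2, FASN, ACLY and INSIG1 were higher and FADS1 and ME1 lower. A link between these changes was not tested.

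MLXIPL, which encodes the glucose-sensing lipogenic factor ChREBP, was low, at 6.54 to 7.47 CPM over all libraries, and had a log2 fold change of -0.063 (adjusted p 0.803). NFYA, a subunit of the factor that binds the CCAAT box, fell from 65.4, 65.3 and 62.5 CPM to 45.6, 46.5 and 50.7 CPM (-0.44, adjusted p 0.000188). PPARGC1B, a coactivator of SREBPs, fell as well (-0.59, adjusted p 0.000149). SP1, which binds the GC box, did not pass, with overlapping groups (-0.038, adjusted p 0.694). PPARG, the nuclear receptor of adipogenesis, and MID1IP1, which promotes polymerization of acetyl-CoA carboxylase, rose by 0.42 and 0.30 on the log2 scale (adjusted p 0.000213 and 0.0112, the latter 0.0607 without DOX-positive replicate 2). Of the 10 tested genes for AMPK, the kinase that inhibits acetyl-CoA carboxylase, and its upstream kinases, 4 rose and 1 fell, with a median of 0.17. Calls made up 50% of these, beside 26.7% of all genes tested. The γ subunit genes PRKAG1 (0.45) and PRKAG2 (0.34), the β subunit gene PRKAB2 (0.33) and STRADA (0.38), a partner of the kinase LKB1, were those that rose, with adjusted p of 0.000586, 0.000351, 0.00172 and 0.0221. The gene that fell was PRKAA1, a catalytic subunit, at 384, 336 and 361 CPM without DOX and at 294, 337 and 317 CPM with DOX (-0.19, adjusted p 0.0391). Its groups overlapped, and the call was lost without DOX-negative replicates 1 (0.214) or 3 (0.0764) or DOX-positive replicates 1 (0.203) or 3 (0.0940). STRADA was lost without DOX-negative replicates 2 (0.0779) or 3 (0.0538) or DOX-positive replicates 1 (0.0551) or 2 (0.0931), and 3 genes of this list passed without DOX-negative replicate 3.

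**Figure D3:**
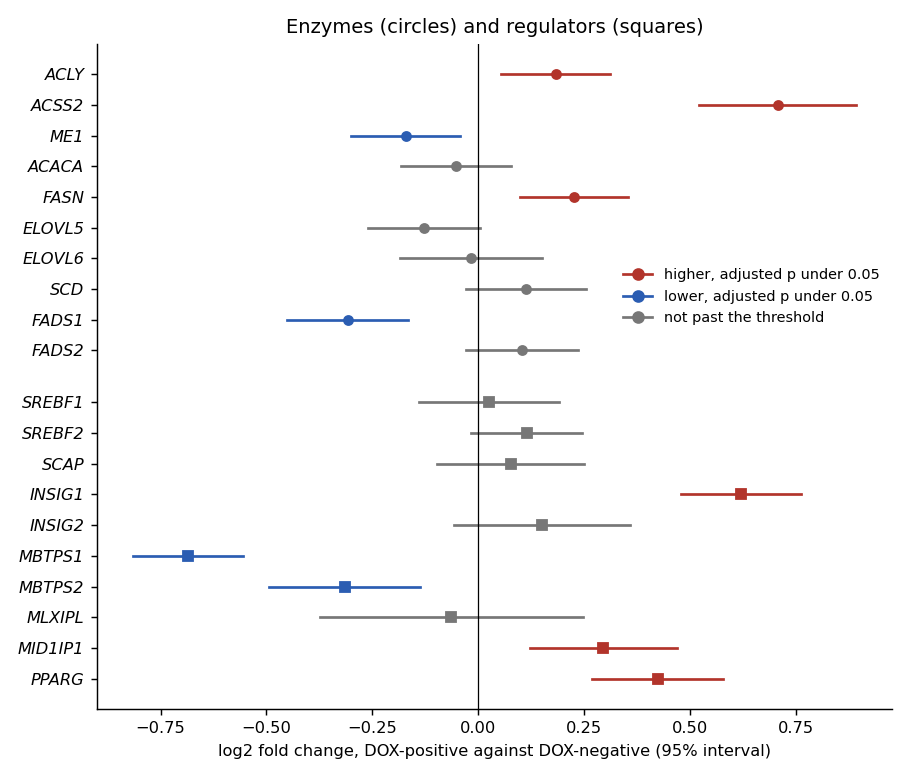
Log2 fold change of DOX-positive against DOX-negative libraries for the 10 enzyme genes (circles) and 10 of the 23 tested regulators (squares). Bars are 95% intervals from edgeR. MBTPS2, PPARG and MID1IP1 were chosen after their values had been seen. Red and blue mark adjusted p under 0.05, higher and lower. ACSS2 and INSIG1 lie farthest to the right, MBTPS1 farthest to the left, and SREBF1 at 0.025.

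The sterol branch, the set of genes directed mainly by SREBP2, is set beside the enzymes by its counts. Of 24 tested genes, 17 rose and 1 fell, with a median of 0.34. Of the 10 fatty acid enzymes, 3 rose and 2 fell, with a median of 0.043. Over all genes tested, 13% were higher and 13.7% lower. HMGCS1, the cytosolic HMG-CoA synthase, went from 271, 278 and 286 CPM to 480, 557 and 537 CPM (log2 fold change 0.92, adjusted p 8.53e-10). MVD (0.70) and IDI1 (0.53) of the mevalonate pathway also rose (adjusted p 2.74e-06 and 1.22e-05), and LBR, a lamin B receptor with sterol reductase activity, fell (-0.67, adjusted p 9.69e-08). The rise of ACSS2 (0.71) lay above the sterol median, and those of FASN (0.23) and ACLY (0.18) lay below it. All 3 were within the range of the sterol genes, -0.67 to 0.92, as were FADS1 (-0.31) and ME1 (-0.17). LBR alone set the low end of that range, and 23 of the 24 sterol genes were above 0. Whether the branches differ was not tested.

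Downstream of synthesis, 25 genes of triglyceride assembly and lipid droplets were tested: 7 rose and 3 fell, with a median of -0.0024. The share called was 40%, beside 26.7% of all genes tested. ABHD5, the coactivator of the lipase ATGL, went from 28.1, 27.4 and 30.6 CPM to 65.2, 54.5 and 62.1 CPM (log2 fold change 1.08, adjusted p 8.09e-09). PNPLA2, which encodes ATGL itself, rose by 0.44 (adjusted p 0.000237), and MGLL, the monoglyceride lipase of the next steps, by 0.50 (adjusted p 2.11e-06). Transcripts for these 3 proteins of triglyceride breakdown were therefore higher. Other genes of the list did not follow. G0S2 (0.024, adjusted p 0.898) and PNPLA3 (-0.12, adjusted p 0.807) did not pass, and LIPE, with at most 3 counts, was not tested. PLIN2, a coat protein of lipid droplets, rose (0.34, adjusted p 0.0046). PLIN3 (-0.22, adjusted p 0.0657) and HILPDA (-0.46, adjusted p 0.0615) did not pass, though all their DOX-positive libraries were lower. On the side of assembly, some members of the same enzyme families went opposite ways, and others did not pass. LPIN3, GPAT4, AGPAT1, AGPAT2 and AGPAT4 had an adjusted p between 0.127 and 0.985. DGAT1 and DGAT2, of the last step, did not pass either (0.0741 and 0.375). Of the phosphatidate phosphatases, LPIN2 fell from 107, 112 and 99.2 CPM to 77.7, 79.8 and 79.3 CPM (-0.43, adjusted p 9.73e-05), and LPIN1 rose from 163, 160 and 170 CPM to 199.9, 183 and 200.5 CPM (0.24, adjusted p 0.0075). Of the glycerol-3-phosphate acyltransferases, which begin glycerolipid synthesis, GPAT3 fell (-0.40, adjusted p 0.0014) and GPAM rose (0.23, adjusted p 0.0374). Of the acyltransferases of the next step, AGPAT3 rose (0.25, adjusted p 0.0099) and AGPAT5 fell (-0.21, adjusted p 0.0378). The GPAM call was lost without DOX-negative replicates 1, 2 or 3 (0.0879, 0.0778 and 0.0825) or DOX-positive replicate 3 (0.197), and the AGPAT3 call without DOX-negative replicate 3 (0.0544) or DOX-positive replicate 1 (0.0543). The AGPAT5 call was kept only without DOX-negative replicate 2, with an adjusted p of 0.0515 to 0.163 when another library was left out.

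Of 14 tested acyl-CoA synthetases and uptake genes, 3 rose and 2 fell, with a median of 0.025 (35.7% called, beside 26.7% of all genes tested). SLC27A4, a fatty acid transport protein, went from 29.9, 33.4 and 29.4 CPM to 44.8, 44.4 and 40.7 CPM (0.49, adjusted p 0.000234). ACSL5, SLC27A3 and ACSL6 were low, with between 19 and 128 counts per library, and changed by 0.83, -0.77 and -0.77 (adjusted p 0.0482, 0.00736 and 0.00708). The ACSL5 groups overlapped, and its call was lost without DOX-negative replicates 1 (0.195) or 3 (0.146) or DOX-positive replicates 1 (0.162) or 3 (0.134). Only 3 genes of the list passed without DOX-negative replicates 1 or 3 or DOX-positive replicate 3. CD36, FABP3, FABP4 and SLC27A6 had at most 4 counts in any library and were not tested.

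Of 23 tested genes of fatty acid oxidation, 7 rose and 1 fell, with a median of 0.15 (34.8% called, beside 26.7% of all genes tested). CPT2, the carnitine acyltransferase of the inner mitochondrial membrane, went from 18.8, 17.2 and 22.7 CPM to 29.5, 26.7 and 27.5 CPM (0.51, adjusted p 0.00108). EHHADH of the peroxisome and ECI1 of the mitochondrion each changed by 0.37 (adjusted p 0.0324 and 0.0357), and PDK4, a kinase that shuts pyruvate dehydrogenase, by -0.59 (adjusted p 0.0422). The calls of EHHADH, ECI1 and PDK4 were lost without DOX-negative replicate 1 (adjusted p 0.110, 0.158 and 0.112), when 2 oxidation genes passed in all. With 1 other library left out, these calls reached an adjusted p of up to 0.127, 0.126 and 0.138, and the count was 5 without DOX-positive replicate 1 or 3 and between 6 and 8 without the other libraries.

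**Figure D4:**
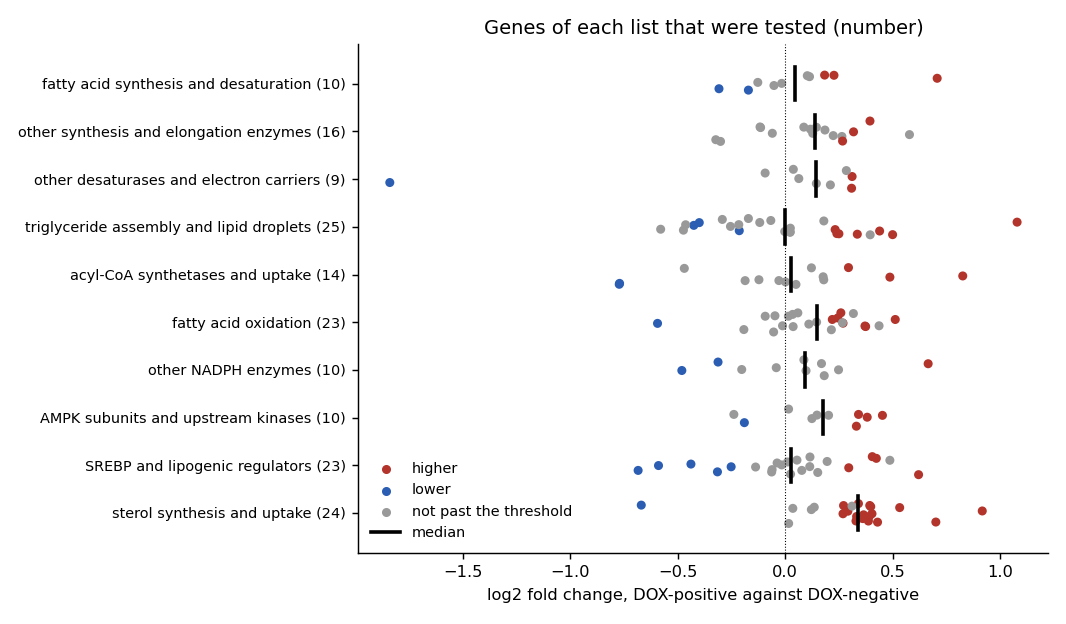
Log2 fold changes of every tested gene in the enzyme set and in 9 related lists (number tested in parentheses), with the list median as a bar. Red and blue points passed the test. The sterol genes lie mostly to the right with a median of 0.34, and the fatty acid enzymes lie on both sides of 0 with a median of 0.043.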

How the data were processed

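RNA-Seq libraries from 3 DOX-negative and 3 DOX-positive DU-145-DR cultures were compared, made with a stranded mRNA kit from total RNA. The authors deposited raw counts per gene, and the submitters' processing notes name STAR, DESeq2 and GRCh38 (hg38). The counting program, its strand setting and the annotation are not given in the sources used here. The authors also deposited TPM values for 25546 genes, in which 2462 genes of the count table were absent. Every count and TPM column was used.

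Counts were filtered with filterByExpr, scaled by TMM and tested with edgeR 4.0.16 (quasi-likelihood F-test, two-sided, R 4.3.3), with Benjamini-Hochberg adjustment over the 14292 genes tested and a threshold of 0.05. A log2 fold change is DOX-positive minus DOX-negative, and CPM values use the TMM-scaled totals. The p-values measure the spread among 3 cultures of 1 line per group. TPM was tested with limma 3.58.1 on log2(TPM + 1), a scale that understates changes of low genes. The script was tested on simulated counts. Alternatives were DESeq2 1.42.0, RLE factors, library totals, no filter on low counts, a minimum of 10 counts in each library, a block for the replicate number, a pseudocount of 0.1, TPM rescaled without 5 short noncoding RNAs, counts thinned to the smallest total, and leaving out each library.

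The enzymes and the related lists (207 genes, all found) were chosen with earlier results of these data known. Named genes were MUC1, the 10 enzymes, SREBF1, SREBF2, SCAP, INSIG1, INSIG2, MLXIPL and, from each list, up to 4 genes of largest absolute log2 fold change among those with an adjusted p under 0.05 and an average log2 CPM of at least 1. A few genes that this rule or a marker list held are left out of the text. Replicates sharing a number across groups did not deviate together (correlations -0.046, -0.12 and -0.032), so the numbers were not used as pairs. Positions and start-site windows came from RefSeq (GRCh38.p14), and gene overlaps from GENCODE 29. Protein sequences were not analysed here.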

Additional observations from a re-analysis of the deposited data

How the results depend on the processing

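The directions of ACSS2, ME1 and FADS1 were the same under all 16 alternatives, and their calls, with that of FASN, were kept under DESeq2 and with at least 10 counts in every library. DESeq2 lost the calls of ACACB (adjusted p 0.0528), ECI1 (0.0540), ACSL5 (0.0818) and PDK4 (0.0871). All calls of enzymes were lost with the deposited TPM, where log2(TPM + 1) called 295 genes and log2(TPM + 0.1) called 334. Enzymes higher and lower numbered 0 and 0 on both TPM scales, 1 and 2 with rescaled TPM, 2 and 2 with library totals, 2 and 1 with the replicate block, and 3 and 1 with RLE factors, no filter or thinned counts. The replicate block called 3158 genes, 3136 of them shared with the 3816 without it. ME1 was lost under RLE factors (0.0516), thinned counts (0.0537), no filter (0.0761) and the block (0.110), and ACLY under library totals (0.0809) and the block (0.0780). With 1 library left out, which leaves fewer samples, 2784 to 3645 genes were called in all, with 2 to 3 enzymes higher and 1 to 2 lower. The same fits gave 1 to 4 other synthesis genes, 3 to 4 desaturase or carrier genes, 7 to 8 regulators, 3 to 5 AMPK genes, 3 to 6 synthetase or uptake genes, 7 to 9 triglyceride genes, 2 to 8 oxidation genes, 16 to 19 sterol genes and 3 to 4 NADPH genes.

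On both TPM scales the calls were 0 for other synthesis, AMPK, synthetase, triglyceride, oxidation and NADPH genes and 1 each for carriers, regulators and sterol genes. The AMPK list had 3 calls with rescaled TPM, the synthetase list 3 with the block and 2 with rescaled TPM, and the oxidation list 5 with library totals or thinned counts and 4 with the block or rescaled TPM. The TPM scales, whose median of all genes moved by -0.34 and -0.39, reversed these log2 fold changes (pseudocount 1, then 0.1): ACLY -0.21 and -0.21, FASN -0.17 and -0.17, SCD -0.28 and -0.28, FADS2 -0.29 and -0.29, SREBF1 -0.34 and -0.37, SREBF2 -0.28 and -0.28, SCAP -0.30 and -0.32, INSIG2 -0.22 and -0.23, MID1IP1 -0.098 and -0.10, HSD17B12 -0.00063 and -0.00040, ACACB -0.066 and -0.067, ELOVL1 -0.13 and -0.13, CYB5B -0.081 and -0.081, CYB5R3 -0.087 and -0.088, STRADA -0.025 and -0.025, PRKAG2 -0.051 and -0.052, PRKAB2 -0.062 and -0.064, EHHADH -0.023 and -0.023, ECI1 -0.023 and -0.020, AGPAT3 -0.14 and -0.14, LPIN1 -0.15 and -0.15, PLIN2 -0.053 and -0.054, and GPAM -0.15 and -0.16. SREBF1 was also reversed with library totals (-0.010) and rescaled TPM (-0.00097) and ranged from -0.0047 to 0.057 with 1 library left out. ELOVL6 was 0.014 with thinned counts and ranged from -0.11 to 0.030. The 15092691 counts of the shallowest library limit what the low genes ACSL5, ACSL6, SLC27A3, CYB5R2 and PDK4 can show.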
